A study of Mus musculus with 8 samples.

Results

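The genes described here are 10 genes of blood vessel signalling and identity, Flt1, Kdr, Tek, Tie1, Pecam1, Cdh5, Vegfa, Erg, Eng and Vwf, out of 31053 genes in the count matrices. They were chosen by symbol, and all 10 were found. Their unique molecular identifiers (UMIs) were summed over the annotated cells of each type in 8 single-cell RNA sequencing libraries of the mouse brain. The libraries came from male C57BL/6N mice, wild-type (WT) or heterozygous for a CRISPR-made frameshift deletion in exon 15 of Setd1a (Setd1a+/-), and no group received a treatment. There were 2 libraries per genotype from the prefrontal cortex (PFC) and 2 per genotype from the striatum, which the sample labels call NAc, and each library pooled the tissue of 2 mice. The labels give an age of 8 to 10 weeks and the methods of the study give an older one, and age entered no test. The mutation is carried by every cell of the animal, so a difference in vessel cells need not arise in them.

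Vascular endothelial growth factor (VEGF) is made mainly by cells around a vessel, and endothelial cells receive it through the receptor tyrosine kinases Kdr (VEGFR2) and Flt1 (VEGFR1), of which Kdr carries most of the signal and Flt1 mostly binds and limits the ligand. Tek (Tie2) and its partner Tie1 form a second receptor system, which angiopoietins from neighbouring cells act on to keep vessels quiescent. Pecam1 and Cdh5 (VE-cadherin) hold endothelial cells together, Eng (endoglin) is a co-receptor for ligands of the TGF-beta and BMP family, Erg is an ETS transcription factor of endothelial identity, and Vwf is a clotting glycoprotein found unevenly along the vessel tree.

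The 8 libraries held 15154268 to 26277553 UMIs each, over 1508 to 4361 annotated cells. The authors' endothelial group had 157 to 632 cells and 414592 to 1996382 UMIs per library, 1562 cells in PFC and 1998 in striatum, with a median of 2368 and 2379 UMIs per cell. Pairs of libraries shared 1 to 24 cell barcodes, at most 0.877% of a library. All 7 endothelial markers on the marker list were found in every library of this group and summed to 14168 to 22142 CPM (counts per 1000000 UMIs of the same cells). Each was detected in 79.4% (Abcb1a) to 99.4% (Itm2a) of PFC cells and 61.6% (Abcb1a) to 98.3% (Ly6c1) of striatal cells. The group also held all 8 pericyte markers, at a summed 5112 to 6286 CPM. They ranged from Cspg4, in 15.0% of PFC and 15.8% of striatal cells, to Rgs5, in 81.4% and 84.9%. Cspg4 was highest in oligodendrocyte progenitor cells. Of the group's cells per library, 57.8% to 75.6% had at least 2 of the pericyte and smooth muscle markers. Both red blood cell markers, haemoglobin genes, were found in every library too, from a summed 3641 CPM in WT replicate 2 to 19710 CPM in WT replicate 1 of PFC and from 12150 to 18556 CPM in striatum, and their part in the results was not tested. The endothelial label is therefore used below for a vascular group, and values without those marker-bearing cells are given where they change a result. Flt1 was detected in 94.9% of the PFC cells with at least 2 of those markers against 95.5% of the rest, and in 92.1% against 88.5% in striatum, while Tie1 in PFC stood at 80.9 against 136.2 CPM. The cells with those markers were deeper, with a median of 2733.5 against 1917.5 UMIs in PFC and 2593.5 against 1961 in striatum, so leaving them out also removes 982 of the 1562 PFC and 1432 of the 1998 striatal cells and the deeper ones among them. Setd1a was counted in the endothelial cells at 8.52 and 13.3 CPM in the WT and 6.76 and 14.5 CPM in the Setd1a+/- PFC libraries, and at 14.5 and 19.1 CPM in the WT and 7.71 and 12.7 CPM in the Setd1a+/- striatal libraries, from 6 to 29 UMIs, and these counts do not tell the alleles apart.

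Of the 10 genes, 9 had their highest mean level in endothelial cells in both tissues, and Vegfa did not. For Flt1, Kdr, Tek, Tie1, Pecam1, Cdh5, Eng and Vwf the lowest endothelial library lay above the highest library of every other cell type, in PFC and in striatum. For Erg the ranges of endothelial cells and microglia overlapped in both tissues, with 1 UMI in microglia in each. In PFC newly formed oligodendrocytes, with 1 UMI, also reached 2.98 CPM, above the lowest endothelial library at 2.41 CPM. Since the authors clustered these cells on their expression, the levels across types are a description without a test.

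**Figure D1:**
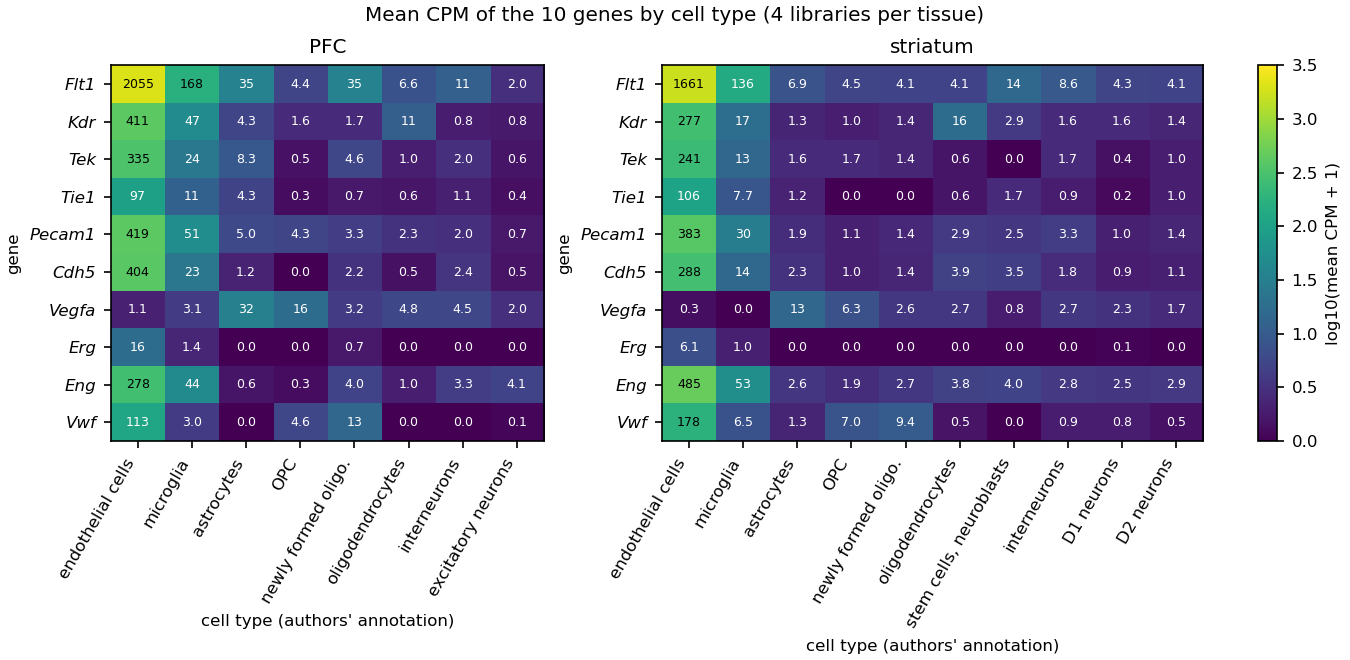
Mean CPM over the libraries of a tissue for the 10 genes (rows) in every annotated cell type of PFC and striatum (columns), printed in the cells and coloured by log10(mean CPM + 1). OPC are oligodendrocyte progenitor cells. The endothelial columns hold the highest value for every gene but Vegfa, whose highest values were in astrocytes (32.3 CPM in PFC, 13.1 CPM in striatum).

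Among the VEGF receptors, Flt1 (chr5:147561604-147726011, minus strand of GRCm38) was read in 95.1% of PFC endothelial cells (95% Wilson interval 94.0 to 96.1%), against 1.48% of PFC excitatory neurons, although the median neuron held 6546 UMIs. Its endothelial level was 2054.8 ± 371.7 CPM (SD, n = 4 libraries) in PFC and 1661.1 ± 179.0 CPM in striatum. Endothelial cells held 96.6% of all Flt1 UMIs of a PFC library on average and 96.9% of those of a striatal one. Kdr (chr5:75932827-75978458, minus strand) was at 410.6 ± 48.2 CPM in PFC and 276.5 ± 20.8 CPM in striatum, and was read in 58.8% and 44.7% of the cells. The endothelial share of all Kdr UMIs was 93.7% in PFC and 90.8% in striatum, and in striatum that was the lowest share among the 9 genes.

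Of the Tie receptors, Tek (chr4:94739289-94874976, plus strand) was at 334.7 ± 34.3 CPM in PFC and 240.6 ± 28.7 CPM in striatum. Tie1 (chr4:118471191-118490061, minus strand) was at 97.3 ± 35.8 CPM in PFC and 105.6 ± 10.9 CPM in striatum, and its spread between PFC libraries was more than 3 times that between striatal ones. No annotated gene overlaps either.

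The junction genes were even across striatal libraries. Pecam1 (chr11:106654217-106750628, minus strand) was at 383.2 ± 14.0 CPM in striatum and 419.3 ± 78.3 CPM in PFC. Cdh5 (chr8:104101625-104144511, plus strand) was at 287.6 ± 14.3 CPM in striatum and 404.2 ± 42.7 CPM in PFC. Cdh5 overlaps an antisense gene, Gm29682, that is in the count matrices too.

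Eng (chr2:32646595-32682669, plus strand), which overlaps the antisense gene Fpgs, was at 278.3 ± 118.4 CPM in PFC and 485.1 ± 103.4 CPM in striatum, and was read in 44.2% and 68.5% of the endothelial cells. Vwf (chr6:125546774-125686679, plus strand) was read in 17.5% and 25.6% of the cells, at 113.4 ± 54.0 CPM in PFC and 177.8 ± 50.2 CPM in striatum. Erg (chr16:95359169-95586593, minus strand) gave few UMIs, 107 in PFC and 36 in striatum, and was read in 6.53% (5.41 to 7.87%) and 1.75% (1.26 to 2.43%) of the endothelial cells. So a cell without an Erg UMI says little about Erg at this depth. Over the 9 genes together, 82.6% of PFC and 79.5% of striatal endothelial cells held UMIs of at least 3, and the median cell held 4.

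RefSeq promoters (GRCm38.p6, the 250 bases before a start site) were given for 7 of the 10 genes, with 10 start sites. Those of 4 endothelial receptors and of Vegfa are shown because they stand for the genes that share the endothelial level and the gene that does not. In the receptor promoters capitals mark AGGAAG, an ETS-type motif, on either strand (as CTTCCT on the strand shown). In that of Vegfa they would mark ACGTG, a form of the core of the hypoxia response element, which these bases do not hold. Other forms of that core, and bases further from a start site, were not searched. The windows lie at chr5:147726012-147726261 (Flt1, minus strand), chr5:75978456-75978705 (Kdr, minus strand), chr4:94739039-94739288 (Tek, plus strand), chr2:32646345-32646594 (Eng, plus strand) and chr17:46032378-46032627 (Vegfa, minus strand).
Flt1: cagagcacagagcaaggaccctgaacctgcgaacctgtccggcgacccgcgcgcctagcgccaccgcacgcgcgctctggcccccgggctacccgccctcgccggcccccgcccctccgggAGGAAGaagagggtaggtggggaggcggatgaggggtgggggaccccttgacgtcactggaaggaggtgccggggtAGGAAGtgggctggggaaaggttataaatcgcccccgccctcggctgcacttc
Kdr: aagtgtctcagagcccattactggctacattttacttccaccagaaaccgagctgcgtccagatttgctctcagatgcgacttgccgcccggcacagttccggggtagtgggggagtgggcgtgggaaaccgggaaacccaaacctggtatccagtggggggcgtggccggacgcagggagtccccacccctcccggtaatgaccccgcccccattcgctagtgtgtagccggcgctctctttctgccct
Tek: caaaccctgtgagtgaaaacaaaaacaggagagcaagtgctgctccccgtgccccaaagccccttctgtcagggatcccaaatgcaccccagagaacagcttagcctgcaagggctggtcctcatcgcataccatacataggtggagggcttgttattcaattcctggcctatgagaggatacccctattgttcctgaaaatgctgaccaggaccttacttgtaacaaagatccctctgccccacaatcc
Eng: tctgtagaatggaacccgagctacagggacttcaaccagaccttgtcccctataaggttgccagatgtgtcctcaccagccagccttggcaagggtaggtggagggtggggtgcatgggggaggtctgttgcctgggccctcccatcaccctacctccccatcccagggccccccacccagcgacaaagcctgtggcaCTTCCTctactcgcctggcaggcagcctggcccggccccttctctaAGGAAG
Vegfa: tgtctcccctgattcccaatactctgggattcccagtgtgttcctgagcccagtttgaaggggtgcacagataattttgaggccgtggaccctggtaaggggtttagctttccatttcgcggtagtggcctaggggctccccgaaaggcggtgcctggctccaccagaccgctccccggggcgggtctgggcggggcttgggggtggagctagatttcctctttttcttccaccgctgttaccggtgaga
AGGAAG was found 2 times in the Flt1 and 2 times in the Eng window and 0 times in those of Kdr, Tek and Vegfa, where 29.5% of 32851 mouse promoters of this length held it. The shorter GGAA, which each AGGAAG contains, was in 93.4% of them and in all 5 shown. ACGTG was in 16.6% of all promoters and in none of these 5, and the second Vegfa start site, not shown, held it 1 time. Of the windows not shown, those of Tie1 and of 1 of the 3 Erg start sites held AGGAAG 1 time. A match describes the letters and is not a binding site.

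Vegfa (chr17:46016993-46032369, minus strand), the main VEGF ligand, was at the other end of the list. It gave 4 UMIs in PFC and 2 UMIs in striatal endothelial cells, and 0 UMIs in 5 of the 8 libraries, which allows up to 1.65 to 7.24 CPM in those. In PFC astrocytes its level was 65.2 and 25.7 CPM in the WT and 8.54 and 29.8 CPM in the Setd1a+/- libraries. In striatal astrocytes it was 10.3 and 22.4 CPM in the WT and 9.01 and 10.6 CPM in the Setd1a+/- libraries. These rest on 1 to 27 UMIs each, and the lowest PFC library lay below every striatal one while WT replicate 1 of PFC lay far above all others.

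Oligodendrocyte progenitor cells were next in both tissues, at 16.0 ± 5.8 CPM in PFC and 6.29 ± 2.03 CPM in striatum. In PFC their range overlapped those of astrocytes and of newly formed oligodendrocytes (up to 8.93 CPM) and lay above that of oligodendrocytes. In striatum the range of astrocytes lay above that of progenitors, but overlapped that of newly formed oligodendrocytes (up to 10.6 CPM). Every remaining type of PFC had a mean of 1.12 to 4.81 CPM and every remaining type of striatum 0 to 2.70 CPM. Empty droplets, barcodes of 1 to 100 UMIs, held Vegfa at 6.77 CPM in PFC and 6.02 CPM in striatum. By their means, astrocytes of both tissues and PFC progenitors were above that level, striatal progenitors were near it, and the other types, endothelial cells included, were below it. Over barcodes of at most 20 UMIs the droplets held 11.7 CPM in PFC and 11.1 CPM in striatum. Against this tissue mean, the mean of striatal progenitors was below free RNA. Set against such droplets of the same library, striatal astrocytes were below free RNA in both replicate 1 libraries and above it in both replicate 2 libraries. PFC astrocytes were above it in every library, with the lowest, Setd1a+/- replicate 1, at 8.54 against 6.66 CPM. PFC progenitors were below it in WT replicate 1 only, and Setd1a+/- replicate 2 stood at 8.03 against 7.54 CPM. The 7 excitatory neuron subtypes of PFC lay between 1.21 and 3.13 CPM, from 1 to 12 UMIs each.

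**Figure D2:**
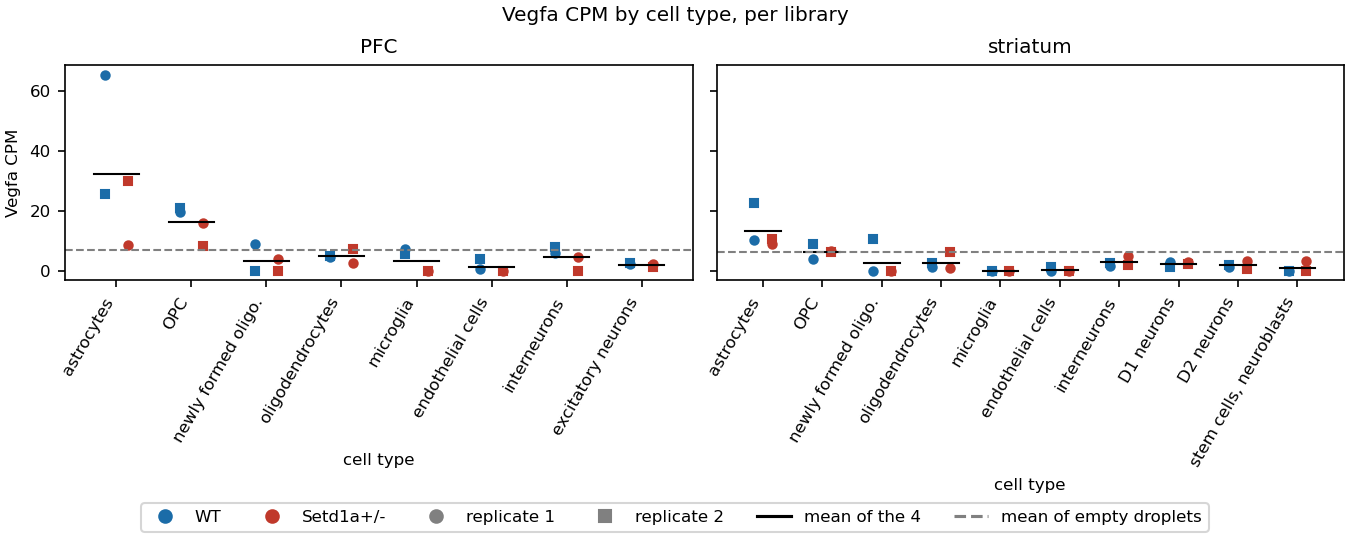
CPM of Vegfa in each library (blue WT, red Setd1a+/-, circle replicate 1, square replicate 2) by cell type, with the mean over the 4 libraries as a short line and the mean of the empty droplets as a dashed line, PFC and striatum in separate panels. All 4 PFC points of astrocytes and of oligodendrocyte progenitor cells (OPC) stand above the dashed line at 6.77 CPM, and endothelial cells lie below it in both tissues.

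Outside endothelial cells, microglia held the next highest level of 8 of the 9 genes in both tissues, at 4.90% to 17.3% of the endothelial level. Vwf was the exception, at 2.66% in PFC and 3.67% in striatum, and the 17.3% is that of Erg, from 1 UMI. Several of these levels were near that of the empty droplets, barcodes of 1 to 100 UMIs that hold free RNA. Microglial Cdh5 was 1.04 times the droplets' level in PFC and 1.01 times in striatum, and Tek 1.12 and 0.884 times. Kdr was 2.26 and 1.08 times that level, Tie1 1.74 and 1.13 times, Flt1 1.66 and 1.74 times, Pecam1 2.44 and 1.34 times, and Eng 2.27 and 1.38 times. Over barcodes of at most 20 UMIs all 7 of these genes were below the droplets' level in striatal microglia, as were Cdh5, Tek and Tie1 in PFC, while Flt1, Kdr, Pecam1 and Eng were above it in PFC. For most genes the UMIs lay in microglia that held another of the 9 genes, and Eng was the main exception. In PFC 85.2% of the 27 microglia with a Kdr UMI also held another of the 9 genes, against 16.0% of those without, and in striatum 86.7% of 15, against 20.7%. At least 3 of the 9 genes were read in 6.43% of PFC and 8.86% of striatal microglia. Of the 39 PFC microglia with an Eng UMI 38.5% held another, and of the 36 striatal ones 50%. For Pecam1 it was 61.0% of 41 in PFC and 78.3% of 23 in striatum. Of PFC microglia 79.3% held none.

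Oligodendrocytes differed from that pattern in 1 gene. Kdr was read in 2.36% of PFC oligodendrocytes (1.7 to 3.2%) and 4.73% of striatal ones (3.95 to 5.67%), against 0.299% and 0.208% of the progenitor cells. After every cell was thinned to 1000 UMIs the shares were 1.42% and 2.39% in oligodendrocytes and 0.224% and 0.139% in progenitors. Kdr stood at 10.4 and 12.3 CPM in the WT and 15.3 and 4.28 CPM in the Setd1a+/- oligodendrocytes of PFC. In striatum it stood at 27.1 and 16.1 CPM in the WT and 21.0 and 0 CPM in the Setd1a+/- libraries. The library at 0 had 67 oligodendrocytes and a limit of 18.9 CPM, so its value does not set it apart.

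Of the 40 PFC oligodendrocytes with a Kdr UMI 7.5% (3 cells) held another of the 9 genes, against 1.69% of those without, and of the 111 striatal ones 5.41% (6 cells), against 2.82%. Low sharing was not particular to Kdr. Flt1 (13.3% of 15 cells in PFC and 23.3% of 30 in striatum) and striatal Eng (11.1% of 18) were mostly alone too. Eng in PFC (66.7% of 3) and Vwf in striatum (100% of 3) were not. Kdr had 43 UMIs in PFC oligodendrocytes beside 26 of Flt1, and 119 beside 32 in striatum. In the empty droplets the order was the other way, with 237 UMIs of Kdr beside 1122 of Flt1 in PFC and 255 beside 1228 in striatum. In endothelial cells it was 1929 beside 9990 and 1559 beside 9459. By level, Kdr in oligodendrocytes was 10.6 CPM in PFC and 16.0 CPM in striatum, where the empty droplets held 20.9 and 16.0 CPM. Set against the droplets of the same library, Kdr was lower in all 4 PFC libraries. In striatum it was higher in both WT libraries (27.1 against 18.8 CPM and 16.1 against 13.2 CPM) and lower in Setd1a+/- replicate 1 (21.0 against 23.1 CPM), and replicate 2 was at 0, with a limit of 18.9 CPM that lies above its droplets' 8.87 CPM, so no order can be read there. Over barcodes of at most 20 UMIs the droplets held 32.1 and 35.7 CPM in the striatal WT libraries, and both oligodendrocyte values were then below free RNA. Flt1 in oligodendrocytes was at 0.0649 times the level of the droplets in PFC and 0.0523 times in striatum.

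Vwf had a similar side in young oligodendrocytes. It was at 13.2 ± 7.7 CPM in newly formed oligodendrocytes of PFC and 9.4 ± 9.0 CPM in those of striatum, from 12 and 5 UMIs. In progenitor cells it was at 4.6 ± 1.4 and 7.0 ± 4.4 CPM, and mature oligodendrocytes of PFC had 0 UMIs. None of the 11 newly formed and 10 progenitor cells of PFC with a Vwf UMI held another of the 9 genes, and in striatum 1 of 5 and 1 of 14 did. Empty droplets held Vwf at 3.94 CPM in PFC and 7.94 CPM in striatum, and 6.60 and 12.2 CPM over barcodes of at most 20 UMIs. Against the latter the levels of progenitors in both tissues and of newly formed oligodendrocytes in striatum were below free RNA. In PFC excitatory neurons, 75 cells held an Eng UMI, at 4.10 ± 2.30 CPM, below the 19.5 CPM of the empty droplets.

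**Figure D3:**
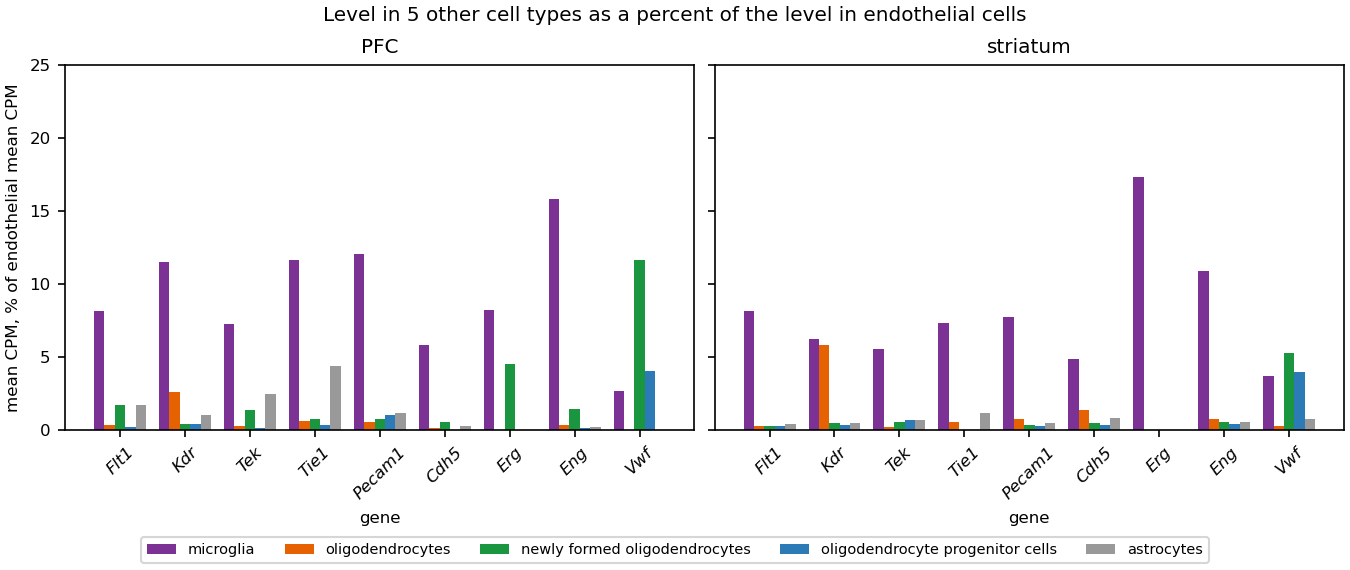
Level of 9 genes in 5 other cell types as a percent of the endothelial level of the same tissue, on means over libraries, PFC and striatum in separate panels. Microglia hold 4.90% to 17.3% for 8 genes, Kdr stands out in oligodendrocytes (2.58% and 5.80%), and Vwf in newly formed oligodendrocytes (11.7% and 5.31%).

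Genes with the pattern most like each member were found by Pearson's r of log2(mean CPM + 1) over the 18 tissue and cell type groups, among 12787 genes. The groups share libraries and depths, so r is a description. Flt1 was most like Slco1a4, an organic anion transporter of the blood-brain barrier (r = 0.990), and Pecam1 most like another transporter, Slc22a8 (r = 0.989). Tek was most like Nostrin (r = 0.992), Tie1 like the shear-responsive factor Klf2 (r = 0.985), Kdr like BC028528 (r = 0.963), and Erg like Scarf1 (r = 0.983). Eng was most like thrombomodulin, Thbd (r = 0.974), Vwf like Kif26a (r = 0.956), and Cdh5 like Hspa1a, a heat shock gene that cell dissociation can raise (r = 0.976). Vegfa had no such close partner, and its nearest was Fam213a (r = 0.899).

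The first comparison asked whether Setd1a heterozygosity moved these genes in PFC endothelial cells. The test on summed UMIs was edgeR's quasi-likelihood test, adjusted over all genes tested, with a false discovery rate under 0.05 and a fold change above 1.5 needed for a call. Of 8777 genes 0 were called (0%), with 154 at an unadjusted p under 0.05, and DESeq2 called 0 as well. With the replicate as a block, which takes the spread between the replicates out of the error, edgeR called 16. Of the 10 genes 9 passed the count filter, Vegfa did not, and 0 of the 9 were called. The study, testing over cells with the same cutoffs, reported endothelial cells among the PFC types with the most changed genes. It named Pecam1 among those genes, which was not called here. The test used here compared libraries, not cells. On simulated counts this test called 6.45% of genes changed 2-fold, so most changes of that size would be missed.

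Erg had the largest difference of the 9. Its levels were 42.1 and 10.6 CPM in the WT and 10.5 and 2.41 CPM in the Setd1a+/- PFC libraries, from 84, 8, 14 and 1 UMIs. The groups met between 10.5 and 10.6 CPM, and WT replicate 1 alone held 84 of the 107 UMIs. The log2 fold change was -1.79 (SE 0.71, unadjusted p 0.0362, edgeR adjusted p 0.999). With the replicate as a block it was -1.98 (edgeR adjusted p 0.0287), and Erg was among the 16 genes called of 8777. That p sets the genotypes against the spread that remains after the block only. Without WT replicate 1 Erg no longer passed the count filter. That library had the deepest endothelial cells, with a median of 2756 UMIs against 2124 to 2197 in the other PFC libraries. Thinned to 1000 UMIs per cell, its share of cells with an Erg UMI was 3.84%, against 1.05% in WT replicate 2, 0.768% in Setd1a+/- replicate 1 and 0% of 157 cells in Setd1a+/- replicate 2. The part of depth in the Erg difference was not tested.

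The other 8 genes lay between -0.28 and -0.06 on the log2 scale, with SEs of 0.22 to 0.53. In Tek both Setd1a+/- libraries (296.0 and 316.0 CPM) were below both WT libraries (359.7 and 367.1 CPM), and the log2 fold change was -0.20 (SE 0.22, edgeR adjusted p 0.999). Kdr was at 447.3 and 421.4 CPM in the WT and 433.4 and 340.1 CPM in the Setd1a+/- libraries, so the genotypes overlapped. Flt1 was at 2443.9 and 1934.9 CPM in the WT and 2246.1 and 1594.3 CPM in the Setd1a+/- libraries, which also overlapped.

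The study's methods pair 1 WT and 1 Setd1a+/- sample in each biological replicate, and within both PFC pairs the Setd1a+/- library was lower for 7 of the 9 genes, namely Flt1, Kdr, Tek, Cdh5, Erg, Eng and Vwf, of which Erg alone was called with the block. Of all 8777 genes tested 29.2% were lower in both pairs and 21.4% higher in both, and the genes of the list are counted in the same cells, so the count of 7 has no test. For Pecam1 and Tie1 the pairs differed in direction. For Eng, Vwf and Tie1 the replicates lay further apart in PFC than the genotypes. Eng was at 221.9 and 139.0 CPM in replicate 1 (WT, then Setd1a+/-) and at 388.3 and 364.2 CPM in replicate 2. Vwf was at 78.6 and 56.3 CPM in replicate 1 and at 164.3 and 154.4 CPM in replicate 2. Tie1 was at 76.6 and 57.8 CPM in replicate 1 and at 121.9 and 132.7 CPM in replicate 2. All 3 were higher in both replicate 2 libraries, whose endothelial groups were smaller (285 and 157 cells against 599 and 521) and took 10.4% to 10.6% of the annotated cells, against 22.8% and 23.8% in replicate 1. Flt1 and Kdr, given above, also split the PFC libraries by replicate, but were lower in both replicate 2 libraries. These splits were noticed after the values were seen and have no test. In the sum over a group of cells, fewer cells of a subtype and less RNA per cell cannot be told apart.

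**Figure D4:**
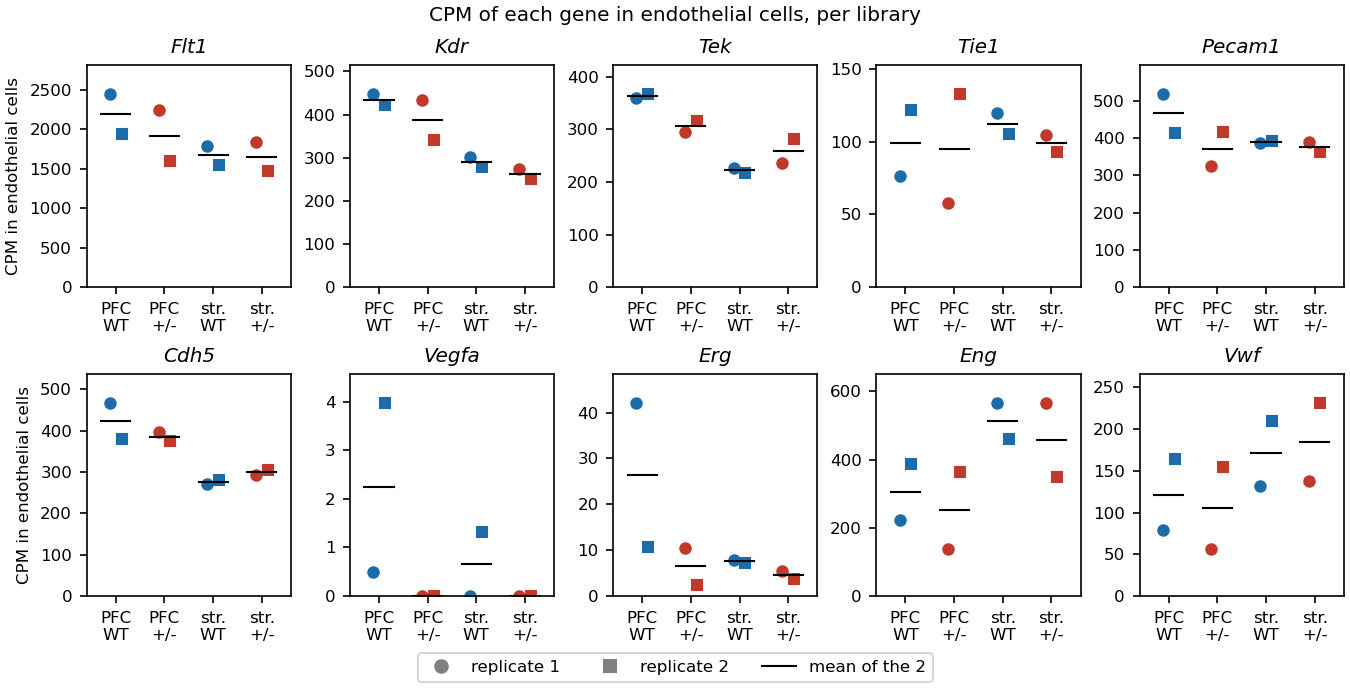
CPM of each of the 10 genes in the endothelial cells of the 8 libraries (1 panel per gene, linear axes from 0), grouped by tissue (str. is striatum) and genotype (blue WT, red Setd1a+/-), with circles for replicate 1, squares for replicate 2 and short lines for the mean of both. In PFC, Eng, Vwf and Tie1 are higher and Flt1 and Kdr lower in both replicate 2 libraries, and 1 PFC WT library holds most of the Erg signal.

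In striatal endothelial cells, where a call needed a fold change above 2, 0 of 10358 genes were called (0%), with 229 at an unadjusted p under 0.05 and 1 called by DESeq2. None of the 9 genes tested was called by either. Their log2 fold changes ran from -0.56 (Erg, SE 0.54) to 0.24 (Tek, SE 0.20), and the SEs of the 7 in between were 0.18 to 0.30. Tek was at 227.1 and 217.7 CPM in the WT and 235.3 and 282.3 CPM in the Setd1a+/- libraries. Its genotypes did not overlap, in the direction opposite to PFC. Pecam1 was at 387.8 and 391.4 CPM in the WT and 391.2 and 362.4 CPM in the Setd1a+/- libraries, which overlapped, and its log2 fold change was -0.01 (SE 0.18).

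Whether the genotype effect differed between the tissues was tested by an interaction term, which called 0 of 10652 genes (0%), with 221 at an unadjusted p under 0.05 and 0 called by DESeq2. The difference for Tek was -0.47 (SE 0.29, unadjusted p 0.14, edgeR adjusted p 1), and the other 8 genes lay between -1.26 (Erg, SE 1.02) and 0.05 (Tie1, SE 0.53). So no difference of the genotype effect was detectable for these genes with 2 libraries per group.

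The second comparison set PFC against striatal endothelial cells, 4 libraries against 4, with genotype as a covariate and a fold change above 1.5 for a call. It called 148 of 10652 genes higher in PFC (1.39%) and 631 lower (5.92%), and 0 of the 9 genes tested. Kdr was between 340.1 and 447.3 CPM in PFC and between 251.3 and 302.0 CPM in striatum, so the tissues did not overlap. Its log2 fold change was 0.56 (SE 0.14, edgeR adjusted p 0.0267), which is 1.47-fold and just under the bar for a call. It was called without WT replicate 2 of PFC (0.59) or Setd1a+/- replicate 2 of PFC (0.61), and without the cells of 2 or more mural markers it was 0.63 with an edgeR adjusted p of 0.0696. The digestion of the tissue was longer for striatum in the study's methods, and its part cannot be told apart from that of the tissue.

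Cdh5 and Tek had the same direction. Cdh5 was between 373.9 and 466.8 CPM in PFC and between 271.2 and 304.1 CPM in striatum, without overlap (log2 0.48, SE 0.14, edgeR adjusted p 0.0565). Tek was between 296.0 and 367.1 CPM in PFC and between 217.7 and 282.3 CPM in striatum, also without overlap (log2 0.47, SE 0.15, edgeR adjusted p 0.0889), and was called without Setd1a+/- replicate 1 of PFC (0.59). Flt1 overlapped, from 1594.3 to 2443.9 CPM in PFC and from 1467.7 to 1834.7 CPM in striatum (log2 0.29, SE 0.16, edgeR adjusted p 0.316). The log2 value of Pecam1 was 0.11 and that of Tie1 -0.20, each smaller than its SE.

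Eng and Vwf pointed the other way. Eng ranged from 139.0 to 388.3 CPM in PFC and from 349.6 to 565.9 CPM in striatum, and only Setd1a+/- replicate 2 of striatum fell into the PFC range (log2 -0.84, SE 0.29, edgeR adjusted p 0.105). Eng was called without Setd1a+/- replicate 2 of PFC (-1.15, edgeR adjusted p 0.0253). Vwf ranged from 56.3 to 164.3 CPM in PFC and from 132.3 to 231.3 CPM in striatum (log2 -0.70, SE 0.33, edgeR adjusted p 0.232). With the replicate as a block within each tissue both were called, Eng at -0.89 (edgeR adjusted p 2.9e-05) and Vwf at -0.73 (edgeR adjusted p 0.00069). The block fit called 1397 of 10652 genes, against 779 in the main fit. It takes the spread between the replicates of a tissue out of the error. So its p sets the tissues against the remaining spread only. Erg was at 1.51 (SE 0.47, edgeR adjusted p 0.0692), and at 0.58 without WT replicate 1 of PFC (edgeR adjusted p 0.621). It was called without WT replicate 2 (1.85) or Setd1a+/- replicate 2 of PFC (1.65). In the fits without 1 library the number of all genes called also moved, and its range is given in the last section. Neuron markers, 6 genes, summed to 199.9 to 404.2 CPM in the PFC and 1234.7 to 2250.9 CPM in the striatal endothelial libraries. Of these, Meg3 alone was at 139.8 to 205.4 CPM in PFC and 1023.1 to 1764.8 CPM in striatum. Oligodendrocyte markers summed to 131.7 to 184.2 CPM in PFC and 94.7 to 1351.5 CPM in striatum, and astrocyte markers to 287.7 to 504.9 and 316.4 to 764.6 CPM. The part of these markers in the tissue differences was not tested.

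**Figure D5:**
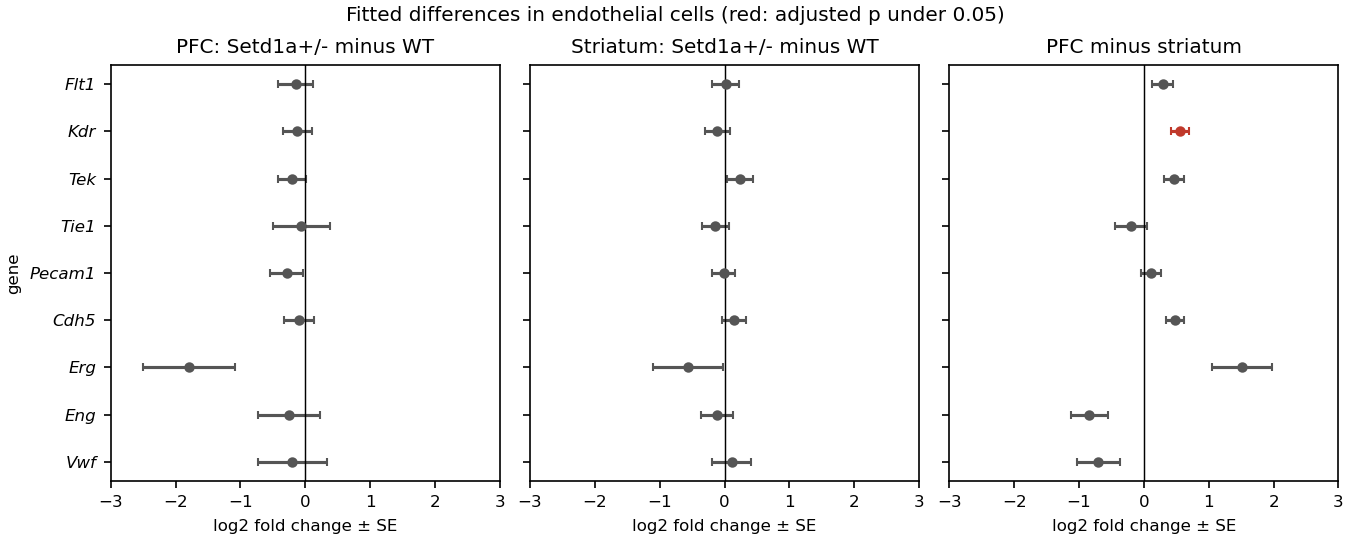
Log2 fold change (points) of the 9 genes tested in endothelial cells, for the genotype in PFC, the genotype in striatum and the tissue (PFC minus striatum). Bars are standard errors derived from the test, the size of the fold change over the square root of its F statistic. Red marks an edgeR adjusted p under 0.05, which is seen for Kdr in the tissue comparison, at 0.56.

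The genes that work with these receptors were described by lists chosen by function. Among other VEGF ligands and receptors 4 of 7 were highest in endothelial cells in each tissue. The co-receptor Nrp1 (133.9 CPM in PFC and 106.1 CPM in striatum) and Flt4, the receptor for Vegfc (37.1 and 28.6 CPM), were among them, and so was Vegfc itself (23.3 and 17.4 CPM). The co-receptor Nrp2 was highest in endothelial cells in PFC (27.9 CPM) and in interneurons in striatum (35.25 CPM, against 25.02 CPM in endothelial cells). Vegfb and Pgf, 2 ligands of Flt1 named after their values were seen, were not, and were highest in interneurons (33.6 CPM) and astrocytes (31.0 CPM) in PFC and both in astrocytes in striatum (28.6 and 18.2 CPM). Of the 7, 0 were called in either genotype comparison or between tissues, and the median log2 difference between tissues was 0.14 beside 0.00 over all genes.

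Of the angiopoietin and Tie partners, Ptprb, the vascular phosphatase that acts on Tek, was at 950.2 ± 150.2 CPM in PFC and 599.4 ± 37.8 CPM in striatum. It ranged from 832.3 to 1158.6 CPM in PFC and from 553.6 to 641.3 CPM in striatum, without overlap, and it was called higher in PFC (log2 0.64, SE 0.15, edgeR adjusted p 0.0202), beside 1.39% of all genes. Angpt2, the Tek ligand that endothelial cells make, was at 12.0 CPM in PFC and 15.9 CPM in striatum and was not called. Angpt1, the activating ligand, was below 10 CPM in every type in both tissues, highest in PFC excitatory neurons (8.87 CPM), and Angpt4 had 1 UMI in all endothelial cells.

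Endoglin's pathway was highest in endothelial cells for 6 of 8 genes in PFC and 7 of 8 in striatum, among them its partner receptor Acvrl1 (235.5 and 270.9 CPM), the type II receptor Bmpr2 (348.5 and 297.4 CPM) and the target genes Id1 (2085.9 and 1570.5 CPM) and Id3 (2497.8 and 2031.1 CPM), and 0 of 8 were called between tissues. All 12 endothelial transcription factors listed were highest in endothelial cells in both tissues, led by Lef1 (473.2 and 344.0 CPM), Ets1 (288.6 and 212.4 CPM) and Fli1 (269.3 and 206.8 CPM), ETS factors of the Erg family in the last 2 cases. Between tissues 11 of the 12 had a positive log2 difference, with a median of 0.34 beside 0.00 over all genes tested, and 0 were called. Of the hypoxia regulators, which act upstream of Vegfa in many cells, 3 of 7 were highest in endothelial cells, with Epas1 (HIF-2 alpha) at 959.3 and 939.8 CPM, and 0 of 6 tested were called. Of 9 other endothelial surface genes, such as Ly6c1 and the tight junction gene Cldn5, 8 were highest in endothelial cells in both tissues, and 0 of 8 tested were called, with a median of 0.05 between tissues.

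Among the genes of the vessel zones, all 5 capillary genes had positive differences, with a median of 0.64, although 2 of them, Mfsd2a and Rgcc, were highest in newly formed oligodendrocytes or oligodendrocyte progenitor cells. The calls below stand beside 1.39% of all genes called higher and 5.92% called lower in PFC. Of the 5, the transferrin receptor Tfrc (log2 1.05, SE 0.24, edgeR adjusted p 0.0211) and the monocarboxylate transporter Slc16a1 (log2 1.06, SE 0.23, edgeR adjusted p 0.0146) were called higher in PFC. The artery gene Alpl was called lower (log2 -0.79, SE 0.21, edgeR adjusted p 0.0398), the other 5 artery genes were not called, and 0 of 4 vein genes tested were. Of 8 genes that respond to dissociation, Junb was called lower in PFC (log2 -0.97, SE 0.19, edgeR adjusted p 0.0077). In the genotype comparisons 0 genes of any list were called, and the median log2 value of the 8 dissociation genes was -0.39 in PFC beside 0.00 over all genes.

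A Vwf UMI was read in 273 of the 1562 endothelial cells in PFC and 512 of the 1998 in striatum. The cells with and without 1 were summed separately in each library and compared within libraries. Cells with a Vwf UMI, called cells with Vwf below, had more UMIs, a median of 3643 against 2197 in PFC and 3238 against 2168 in striatum. So a cell without a Vwf UMI may hold Vwf that was not read at this depth. The test, which needed a fold change above 1.5, called 216 of 6265 genes higher (3.45%) and 230 lower (3.67%) in cells with Vwf. Vwf chose the cells and is not a result.

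None of the 7 other genes tested passed the fold bar, though 6 had an edgeR adjusted p under 0.05, all 6 higher in cells with Vwf. With no fold bar 27.7% of the 6265 genes had such a p, and 13.4% had it with a higher level. Without the cells of 2 or more mural markers 0 of the 7 had one, from 0.103 (Flt1) to 0.966 (Eng). The log2 values were then 0.23 for Flt1 (SE 0.09), 0.27 for Tie1 (SE 0.19), 0.36 for Tek (SE 0.16), 0.22 for Cdh5 (SE 0.12), 0.10 for Pecam1 (SE 0.12) and 0.26 for Kdr (SE 0.12), smaller and with larger SEs than over all cells. In all cells DESeq2 gave 0.0916 for Tie1 and 0.167 for Pecam1. Kdr was 1.43-fold higher in cells with Vwf (log2 0.51, SE 0.06, edgeR adjusted p 1.6e-08) and Tek 1.42-fold (log2 0.50, SE 0.08, edgeR adjusted p 2.0e-06). Cdh5 (0.34), Flt1 (0.31), Tie1 (0.30) and Pecam1 (0.17) followed on the log2 scale. Eng was at -0.03 (SE 0.06, edgeR adjusted p 0.744), although Eng and Vwf had split the PFC libraries alike. Erg and Vegfa had too few UMIs to be tested.

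The genes with the largest differences were Vcam1, an adhesion molecule for leukocytes (log2 2.35, SE 0.09), the interleukin-1 receptor Il1r1 (2.06), the cholesterol hydroxylase Ch25h (1.99), coagulation factor F5 (1.93) and the chemokine Cxcl2 (1.70), all higher with Vwf. Lower with Vwf were Crym (-1.56), Aldoc (-1.42), Tac1 (-1.42), Mt3 (-1.38) and Tmem191c (-1.37), of which Aldoc is an astrocyte marker and Tac1 a neuropeptide gene, and DESeq2 did not call Crym or Tac1. Over all genes tested 3.45% were called higher and 3.67% lower with Vwf. All 3 vein genes tested were called higher, Icam1 at 1.65, the venous factor Nr2f2 at 0.68 and the amino acid transporter Slc38a5 at 0.64. Of 6 artery genes 0 were called higher and 1 lower (Alpl, -0.71). The capillary genes were divided, with Slc16a1 (0.76) and Tfrc (0.70) higher and Mfsd2a (-0.64) lower.

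Signalling genes called higher in cells with Vwf stood beside 3.45% of all genes. They were Nrp2 (1.44), a co-receptor found on veins, as 1 of 4 VEGF genes tested, and Ptprb (0.69), the 1 Tie partner tested. Smad7 (0.70) was 1 of 7 genes of endoglin's pathway and Sox7 (0.61) 1 of 11 transcription factors. Hif1a (0.76) and Egln1 (0.61) were 2 of 6 hypoxia regulators. Of 8 dissociation genes 1 was called higher, Egr1 (0.61). Restricted to cells of 2000 to 5000 UMIs, a range chosen after the data were seen, with medians of 3294.5 and 2770 UMIs in 478 and 1500 cells, the test called 159 genes instead of 446. Without the cells of 2 or more mural markers it called 65. Vcam1 was called in both, at 2.10 and 2.07, and so was Mt3, at -1.24 and -1.40. The other 8 of the 10 genes named above for their size did not pass the count filter without the mural marker cells, and in cells of 2000 to 5000 UMIs Il1r1, Ch25h, Crym, Tac1 and Tmem191c did not. Kdr was at 0.46 (edgeR adjusted p 0.0002) in cells of 2000 to 5000 UMIs and at 0.26 (edgeR adjusted p 0.202) without the mural marker cells.

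In the other cell types the genes were tested where they passed the count filter. By genotype, 16 fits gave 11 tests of these genes, of which 0 were called, beside 4 of 105489 tests over all genes (0.00379%), 0 of the 11 had an unadjusted p under 0.05, and DESeq2 called 0. The differences ran from -0.92 (Flt1 in D2 medium spiny neurons, SE 0.83) to 1.1 (Flt1 in striatal microglia, SE 0.53, edgeR adjusted p 1.0). Vegfa was tested in PFC oligodendrocyte progenitor cells, where its level was 19.5 and 20.9 CPM in the WT and 15.8 and 8.03 CPM in the Setd1a+/- libraries. Both Setd1a+/- libraries were below both WT libraries, and the log2 fold change was -0.71 (SE 0.54, edgeR adjusted p 1.0), from 3 to 16 UMIs each.

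Between tissues, 6 fits gave 8 tests of these genes, of which 1 was called, beside 7.54% of all tests. This was Vegfa in astrocytes, higher in PFC (log2 1.54, SE 0.46, edgeR adjusted p 0.0331), in a fit that called 3.6% of its genes higher in PFC. As given above, the libraries of the tissues overlapped. DESeq2 gave 1.49 and no call (adjusted p 0.0896), and without WT replicate 1 of PFC the log2 value was 1.10 (edgeR adjusted p 0.312). It was also not called without Setd1a+/- replicate 2 of PFC (1.37, edgeR adjusted p 0.114) or WT replicate 1 of striatum (1.25, edgeR adjusted p 0.125). In progenitor cells Vegfa differed in the same direction (log2 1.39, SE 0.45, edgeR adjusted p 0.193), and the PFC libraries (8.03 to 20.9 CPM) overlapped the striatal ones (3.8 to 8.8 CPM). Kdr in oligodendrocytes was lower in PFC without a call (log2 -0.97, SE 0.40, edgeR adjusted p 0.231). In microglia Pecam1 was at 0.82 (SE 0.38, edgeR adjusted p 0.143) and Kdr at 1.20 (SE 0.61, edgeR adjusted p 0.181), also without a call.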

How the data were processed

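Single-cell RNA was measured with 10x Chromium in 8 libraries. The authors aligned and counted reads with Cell Ranger 3.0.2 against mm10 and clustered cells with Seurat 3.2.0, per the submitters' processing notes, after dropping cells under 800 genes or over 10% mitochondrial reads. The deposited matrices hold raw UMI counts per gene and barcode, and the authors' deposited annotation gives each cell's type. Doublets were not called again here. Deposited tables of normalized expression were not used. Members and gene lists were chosen with earlier results of these data known. List genes named with values are from the 4 of each list with the most endothelial UMIs, not always all 4, plus any called, unless the text says otherwise; for the Vwf comparison the 5 genes with the largest called differences in each direction were added.

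Counts were summed per library and cell type and tested with edgeR 4.0.16 (quasi-likelihood, TMM factors, minimum count 10, Benjamini-Hochberg over all genes tested) in R 4.3.3. The SE beside an edgeR log2 fold change was derived from the test. It is the size of the fold change divided by the square root of the F statistic. Alternatives were library size alone, no filter, DESeq2 1.42.0, a replicate block, each library left out, and removal of cells with 2 or more mural markers. The methods say that each biological replicate held 1 sample per genotype, and deviations of same-numbered libraries correlated at r = 0.392 in PFC (8777 genes) and 0.351 in striatum (10358 genes). Scripts were tested on counts simulated from the endothelial sums. The PFC genotype fit called 6.45% of genes changed 2-fold and 71.4% of those changed 4-fold, with 9 false calls among 8777 genes. The striatal genotype fit called 25.8% and 83.9%, with 14 false calls among 10358 genes. The labels do not say that the replicates are separate litters or days, so p-values measure the spread between these pooled libraries. Thinning drew 1000 UMIs per cell. Intervals (95%, Wilson) and limits for a count of 0 (3 counts) cover counting error only. Gene positions came from a GENCODE annotation of GRCm38, which held 30934 of the 31053 gene IDs.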

Additional observations from a re-analysis of the deposited data

Results flagged for a closer look

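In groups of the 4 endothelial libraries of a tissue, 3 of 20 gene and tissue groups held a library beyond Dixon's 95% limit. The limit is on the distance to the nearest other library as a share of the range. With normally distributed values, chance passes it in about 1 in 20 groups. Pecam1 was at 362.4 CPM in Setd1a+/- replicate 2 of striatum, below the other 3 libraries at 387.8 to 391.4 CPM, a gap of 0.875 of the range. Vegfa was at 3.98 CPM in WT replicate 2 of PFC, from 3 UMIs, with a gap of 0.874. Vegfa was also at 1.32 CPM in WT replicate 2 of striatum, from 2 UMIs, where the other 3 libraries had 0. With so few UMIs that rate does not apply to Vegfa in either tissue.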

How the results depend on the processing

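Over the alternatives chosen at the outset and 1 added after the data were seen (Vwf comparison in cells of 2000 to 5000 UMIs), 453 fold changes kept their direction and side of the threshold, 44 changed sign, 12 became called and 4 lost their call, while 55 counts stayed within 1.5 times of the main count and 29 did not. Counts of called genes moved most. The PFC genotype count was 0 and became 7 with no filter, 16 with the replicate block and 1 to 42 without 1 library. The striatal genotype count was 0 and became 19 with no filter, 1 with DESeq2, 25 with the block and 8 to 102 without 1 library. The tissue count of 779 became 1537 with no filter, 1397 with the block, 486 without mural marker cells (6260 genes tested) and 239 to 1153 without 1 library, lowest without WT replicate 1 of PFC. The interaction count of 0 became 5 with no filter, 1 with the block and 0 to 1 without 1 library. The Vwf count of 446 became 65 without mural marker cells and 159 in cells of 2000 to 5000 UMIs, and was 397 to 508 without 1 library. In other types 1 gene called between tissues became 3 with no filter, 0 with DESeq2 and 0 to 1 without 1 library.

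The replicate block called Erg by genotype in PFC (-1.98) and Eng (-0.89) and Vwf (-0.73) between tissues, and changed no other call of the 10 genes. With no filter Erg (1.53), Eng (-0.85) and Vwf (-0.70) were called between tissues. Without mural marker cells Tie1 (0.092) and Vwf (0.10) turned in the PFC genotype comparison, Pecam1 (0.016) in the striatal one, Tie1 (0.080) between tissues and Kdr (0.031) in the interaction. Flt1 in the striatal genotype comparison turned with library size alone (-0.015) and no filter (-0.011), and Eng in the Vwf comparison with library size alone (0.022) and in cells of 2000 to 5000 UMIs (0.034).

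Leaving out 1 library, where the lone sample of an arm is assumed to vary like the others, gave in the PFC genotype comparison -0.36 to 0.043 for Flt1, -0.26 to 0.0023 for Kdr, -0.75 to 0.54 for Tie1, -0.23 to 0.058 for Cdh5, -1.12 to 0.36 for Eng and -1.07 to 0.47 for Vwf. In the striatal one it gave -0.16 to 0.16 for Flt1, -0.074 to 0.035 for Pecam1, -0.52 to 0.17 for Eng and -0.28 to 0.47 for Vwf. Between tissues Tie1 ran from -0.45 to 0.040. In the interaction the ranges were -0.17 to 0.079 for Kdr, -0.63 to 0.67 for Tie1, -2.90 to 0.16 for Erg, -1.03 to 0.47 for Eng and -1.21 to 0.35 for Vwf, and in the Vwf comparison -0.062 to 0.015 for Eng. The cause of these changes was not tested. The comparison of cells with and without Vegfa was not run, since 0 libraries held 10 cells with a Vegfa UMI. Empty droplets counted over barcodes of at most 20 UMIs gave a Vegfa level of 11.7 CPM in PFC and 11.1 CPM in striatum in place of 6.77 and 6.02 CPM, which moves the striatal astrocytes to about that level.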
